A study of Arabidopsis thaliana with 9 samples.

Results

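The CYP81D genes of Arabidopsis thaliana are a group of closely related cytochrome P450 genes, and 9 of them, CYP81D1 to CYP81D8 and CYP81D11, were followed here by their gene identifiers, out of 29071 genes listed for at least 1 treatment. All 9 were listed for EtBr and 7 for doxycycline. CYP81D2 and CYP81D6 were not analysed here for doxycycline. RNA was sequenced from whole seedlings of the wild type Col-0, 7 days old, grown on half-strength Murashige and Skoog medium and treated with water, with doxycycline (Dox) or with ethidium bromide (EtBr), with 3 libraries of each. Its stated subject is the unfolded protein response of mitochondria. No source used here gives the dose, the length of treatment or whether libraries came from separate sets of plants, so the tests see the spread between libraries, which may be technical.

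Cytochrome P450 enzymes of plants are haem proteins that sit in the membrane of the endoplasmic reticulum, take electrons from a cytochrome P450 reductase and use oxygen to hydroxylate or otherwise oxidise small molecules. The CYP81 family includes the CYP81F enzymes, which modify indole glucosinolates, and the CYP81D genes, several of which are known to respond to xenobiotics, reactive oxygen species and oxylipins. CYP81D8 is widely used as a transcript marker of oxidative and mitochondrial stress, and CYP81D11 is known for its response to cis-jasmone and to foreign chemicals through TGA transcription factors. Doxycycline is a tetracycline antibiotic and stops protein synthesis in bacteria and in the organelles, whose ribosomes are of the bacterial kind. EtBr is a DNA-intercalating dye.

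The genes have the haem signature of P450 enzymes, and the 30 coding bases that carry it are shown because they are what the members have in common as enzymes. Each runs 5′ to 3′ on the coding strand of the RefSeq annotation of TAIR10.1, and the capitals mark the codon of the cysteine that binds the haem iron.
CYP81D1: tttggattaggtagaagagcgTGTcctgga
CYP81D2: ttcgggctaggaagaagggcaTGTcctgga
CYP81D3: tttgggctaggaagaagggcgTGTcctggg
CYP81D4: tttgggatgggacgaagagctTGTcctgga
CYP81D5: tttgggatgggacgacgagctTGTcctgga
CYP81D6: tttgggatgggacgacgagccTGTcccggg
CYP81D7: tttgggtttggacgacgagctTGTcccggg
CYP81D8: tttgggttaggaagaagggcgTGTcctggt
CYP81D11: tttgggattggacgacgatctTGCcctggt

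By position the members fell into a run and 3 other places. CYP81D5 (AT4G37320), CYP81D4 (AT4G37330), CYP81D3 (AT4G37340), CYP81D2 (AT4G37360) and CYP81D8 (AT4G37370) lay in this order on chromosome 4, between bases 17559378 and 17571743, all on the minus strand, with 61 to 881 bases between neighbouring genes. CYP81D7 (AT2G23190, chr2:9877058-9879007) and CYP81D6 (AT2G23220, chr2:9884550-9886752) lay on the plus strand of chromosome 2. CYP81D11 (AT3G28740, chr3:10788698-10790553) and CYP81D1 (AT5G36220, chr5:14253673-14256284) lay on the minus strand of their chromosomes. These are the positions of the deposited tables, and they were equal to those of TAIR10.1 for 9 of 9 members. Each gene had 3 exons. The reads of the 9 genes may be shared where their sequences are alike. Over 36 pairs the identity of the coding sequences was 63.6% to 89.7%. It was highest for CYP81D6 and CYP81D7, and CYP81D2 and CYP81D3 had 84.4%. The longest identical stretch of CYP81D6 and CYP81D7 was 83 bases, which begin at coding base 1046 of CYP81D6 and coding base 1133 of CYP81D7. It is shown because a read within it cannot be assigned to either gene, and their values are therefore uncertain.
CYP81D6 and CYP81D7: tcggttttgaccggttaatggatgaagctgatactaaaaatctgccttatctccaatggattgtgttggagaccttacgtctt

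Libraries held 17724030 to 20330871 reads. For pairs of libraries within a group, chi-square per degree of freedom ranged from 8.64 to 62.6 over read counts, above counting error. EtBr replicate 3 stood apart from EtBr replicates 1 and 2, with values of 62.6 and 54.6, against 8.64 between the other two. Results for EtBr are therefore also given without it. The median log2 change of all genes was -0.01 for Dox and 0.39 for EtBr, and 0.09 for EtBr over genes with a mean of at least 10. Levels below are normalized counts, that is reads divided by the library's size factor, as the authors deposited them. Water was scaled separately for each treatment, so each treated group is set beside the water values of its own scale. In whole seedlings, fewer cells of a type and less RNA per cell cannot be told apart.

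In water the family was carried by CYP81D4 and CYP81D1. Per kilobase of exon, on the scale of the Dox comparison, CYP81D4 stood at 630.1 ± 105.0 (SD, n = 3), CYP81D1 at 276 ± 69.3 and CYP81D5 at 112 ± 24.8 normalized counts. CYP81D8 followed with 44.8 ± 14.8, CYP81D3 with 19.6 ± 8.31 and CYP81D11 with 7.80 ± 6.84. The libraries of neighbours in this order did not overlap, except those of CYP81D3 and CYP81D11. CYP81D7 had 2 reads over the 3 water libraries, and CYP81D2 and CYP81D6 had none.

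Dox raised 2 members strongly and lowered 1. CYP81D8 and CYP81D11 rose, CYP81D3 fell, and CYP81D1, CYP81D4, CYP81D5 and CYP81D7 did not pass the test. The 2 higher members are set against 6.47% of all 24434 genes called higher, and the 1 lower member against 5.27% called lower (limma on log2 of the normalized count plus 1, Benjamini-Hochberg adjusted p under 0.05 over all genes). CYP81D11 stood at 1443, 1494 and 2254 normalized counts in Dox replicates 1 to 3, and at 5.03, 25.0 and 7.34 in water replicates 1 to 3. Every Dox library lay far above every water library, and water replicate 2 was the highest of the water group. The log2 change was 7.28 ± 0.46 (SE, limma adjusted p = 5.45e-06), and 7.90 without water replicate 2. In reads the ratio was 136, with a 95% counting interval of 98.8 to 192. Among the 191 P450 genes measured, no other gene had a larger log2 change with Dox.

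CYP81D8 had 2553, 3660 and 4621 normalized counts in Dox replicates 1 to 3. In water it had 56.3, 109 and 75.5 normalized counts. The groups did not overlap, and Dox replicate 3 was the highest. Its log2 change was 5.48 ± 0.25 (SE, limma adjusted p = 8.73e-07), and the read ratio was 44.7 (39.4 to 51.0). CYP81D8 ranked 3 among the 191 P450 genes, behind CYP81D11 and CYP89A3, another P450 gene, which was listed at 0 in every water library.

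CYP81D3 went the other way. It had 11.9, 3.90 and 5.98 normalized counts with Dox and 27.2, 25.0 and 51.4 with water, so that the highest Dox library lay below the lowest water library. The log2 change was -2.15 ± 0.50 (SE, limma adjusted p = 0.0210), which rests on 22 reads with Dox and 102 with water. Leaving out any 1 of the 6 libraries ended the call, with limma adjusted p of 0.0597 to 0.138. Some markers of root cells were also lower: 7 of 16 were lower with Dox, or 43.8% against 5.27% of all genes, and 0 higher (limma, 10 with an unadjusted p under 0.05, edgeR 7 lower and 0 higher). The 7 were EXPA18, EXPA7, PRP3, LRX1, PER73, IRT1 and NRT2.1. SHR, SCR and MYB36 did not fall, with log2 changes of 0.17, 0.06 and 0.37 (limma adjusted p = 0.654, 0.817 and 0.555). The remaining markers had negative log2 changes that did not pass. The summed level of the 16 was 1119 to 1444 with Dox and 1425 to 2678 with water, and EXPA18, a root hair expansin, was at 0 in all 3 Dox libraries. PER73, a root hair peroxidase, had a mean of 125 ± 70.1 in water and 1.33 ± 1.52 with Dox (SD, n = 3, limma adjusted p = 0.000162). IRT1, the iron transporter of the root, had 118 ± 127 and 0.330 ± 0.572 (limma adjusted p = 0.000427), so its water libraries were very uneven. The water libraries of NRT2.1 (172 ± 169) and LRX1 (45.6 ± 45.0) were uneven too. Leaving out 1 library brought that count to between 3 and 5. Shoot photosynthesis markers were called 0 times of 10 (limma, 0 with an unadjusted p under 0.05, edgeR 0), where 11.7% of all genes were called in either direction. PSAN, LHCB1.1 and GAPA1, smallest in adjusted p, had log2 changes of 0.13, -0.16 and 0.15 (limma adjusted p = 0.628, 0.673 and 0.743). The part of root cells in the level of CYP81D3 was not tested.

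CYP81D4, CYP81D5 and CYP81D1, the members most abundant in water, did not pass the test with Dox. CYP81D4 had 1484, 1468 and 1544 normalized counts with Dox and 1429, 1104 and 1065 with water. Its Dox libraries all lay above its water libraries, but the log2 change of 0.33 ± 0.13 (SE, limma adjusted p = 0.125) did not pass the test. It passed without water replicate 1, the highest of the water group (log2 change 0.47, limma adjusted p = 0.0271). CYP81D5 had 283 to 302 normalized counts with Dox and 195 to 298 with water, and its groups overlapped (log2 change 0.32 ± 0.18, limma adjusted p = 0.293). CYP81D1 had 646 to 764 with Dox and 533 to 878 with water, with a log2 change of 0.03 ± 0.17 (limma adjusted p = 0.938) that was -0.00 with centring, -0.01 with edgeR, -0.15 without water replicate 2 and -0.04 without Dox replicate 3. CYP81D7 had 0 reads with Dox and 2 with water, which is too few to compare.

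**Figure D1:**
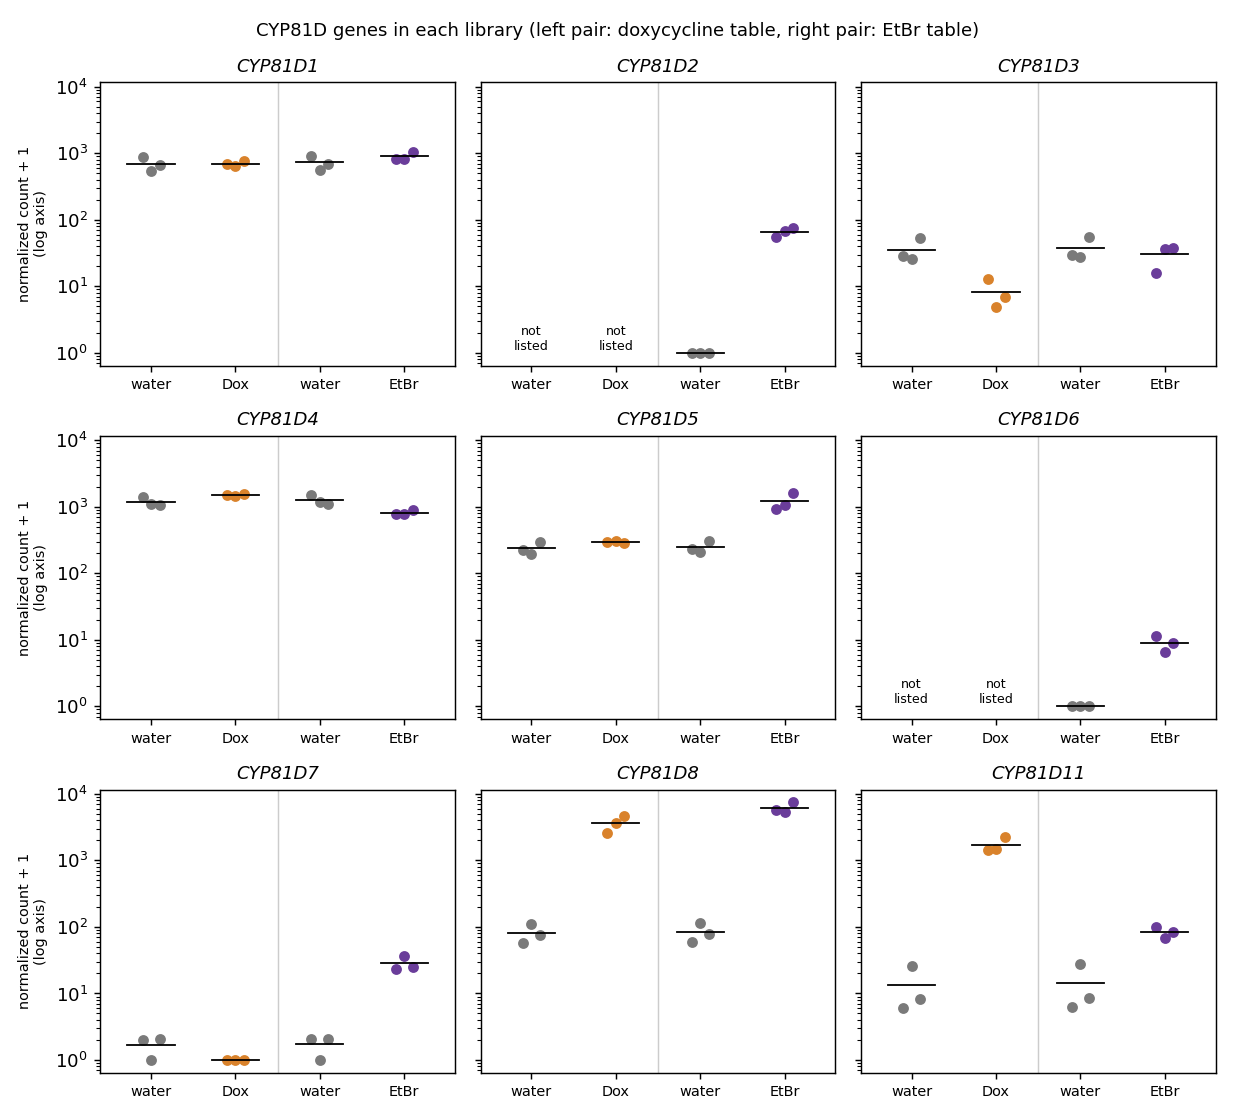
Normalized count plus 1 (log axis) of each CYP81D gene in each library, with the mean of each group as a line. In each panel the left pair is water and Dox and the right pair is water and EtBr, each pair on its own scale. CYP81D8 is high under both treatments, CYP81D11 is highest with Dox, and CYP81D2, CYP81D6 and CYP81D7 are above 3 normalized counts only in EtBr libraries among those listed.

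With EtBr, CYP81D8, CYP81D7, CYP81D11 and CYP81D5 rose, CYP81D4 fell, and CYP81D1 and CYP81D3 did not pass the test. CYP81D2 and CYP81D6 had no read in water. No gene without any read was listed, so these members were listed only through their EtBr reads and could only come out higher, and they are left out of the count. Of the 7 members with a read in water 4 were called higher, where 34.2% of all 28956 genes were, and 1 lower, where 21.2% were. The median log2 change of the 7 was 2.24, against 0.39 over all genes. Of all genes, 4758 (16.4%) likewise had no read in water and could only come out higher. The shares and the median of all genes include them, unlike those of the 7. CYP81D8 stood at 5782, 5402 and 7456 normalized counts with EtBr and at 59.3, 115 and 78.5 with water. All EtBr libraries lay far above all water libraries, with EtBr replicate 3 the highest. The log2 change was 6.22 ± 0.24 (SE, limma adjusted p = 2.69e-06), the read ratio was 72.8 (64.1 to 83.0), and the log2 change without EtBr replicate 3 was 6.09.

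The levels of CYP81D2 and CYP81D6 are given as a description. CYP81D2 had 53.6, 66.2 and 74.5 normalized counts with EtBr and 0 in the 3 water libraries, that is 207 reads against none. Set against a floor of 3 reads over the water group, it stood 61.0-fold higher, and 39.9-fold to 41.3-fold without any 1 water library, where the floor stands over 2 libraries. The exact 95% counting interval of its read ratio began at 49.1. CYP81D6 had 10.6, 5.52 and 8.06 with EtBr and 0 with water, 26 reads against none. It stood 7.66-fold above the same floor, and 5.02-fold to 5.19-fold without any 1 water library, and its counting interval began at 5.80. Of all genes, 4758 of those listed for EtBr (16.4%) had no read in water. Their median level with EtBr was 4.33, and the level of CYP81D2 was above that of 95.4% of them and that of CYP81D6 above 65.0%. CYP81D7, near CYP81D6 on chromosome 2, had 22.0, 35.9 and 24.2 normalized counts with EtBr and 1.06, 0 and 1.09 with water. Every EtBr library lay above every water library. With 88 reads against 2 its read ratio was 38.9, with a wide counting interval of 10.4 to 326 (log2 change 4.09 ± 0.50, limma adjusted p = 0.000246).

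CYP81D5, at one end of the run on chromosome 4, had 919, 1074 and 1635 normalized counts with EtBr and 235, 207 and 309 with water. The groups lay apart, and EtBr replicate 3 was again the highest. Its log2 change was 2.24 ± 0.24 (SE, limma adjusted p = 0.000131), and 2.00 without EtBr replicate 3. CYP81D11 had 99.4, 67.1 and 83.6 with EtBr and 5.29, 26.5 and 7.63 with water. Its groups did not overlap, and water replicate 2 was again the highest of the water group. The log2 change was 2.87 ± 0.55 (SE, limma adjusted p = 0.00263), and 3.50 without water replicate 2. In reads the ratio was 6.25 (4.44 to 9.03).

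CYP81D4, the most abundant member in water, was the one that fell. It had 784, 768 and 905 normalized counts with EtBr and 1503, 1171 and 1106 with water. All EtBr libraries lay below all water libraries, and the log2 change was -0.61 ± 0.15 (SE, limma adjusted p = 0.00934). The call was lost without EtBr replicate 1 (limma adjusted p = 0.0536) and without EtBr replicate 2 (limma adjusted p = 0.0564), and held without EtBr replicate 3. CYP81D1 had 819 to 1052 with EtBr and 565 to 924 with water (log2 change 0.32 ± 0.20, limma adjusted p = 0.197), and its groups overlapped. CYP81D3 had 15.0 to 37.3 with EtBr and 26.5 to 53.4 with water (log2 change -0.34 ± 0.47, limma adjusted p = 0.550), and 0.07 without EtBr replicate 1. Without EtBr replicate 3 the calls and directions of the 7 members with a read in water stayed as they were.

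**Figure D2:**
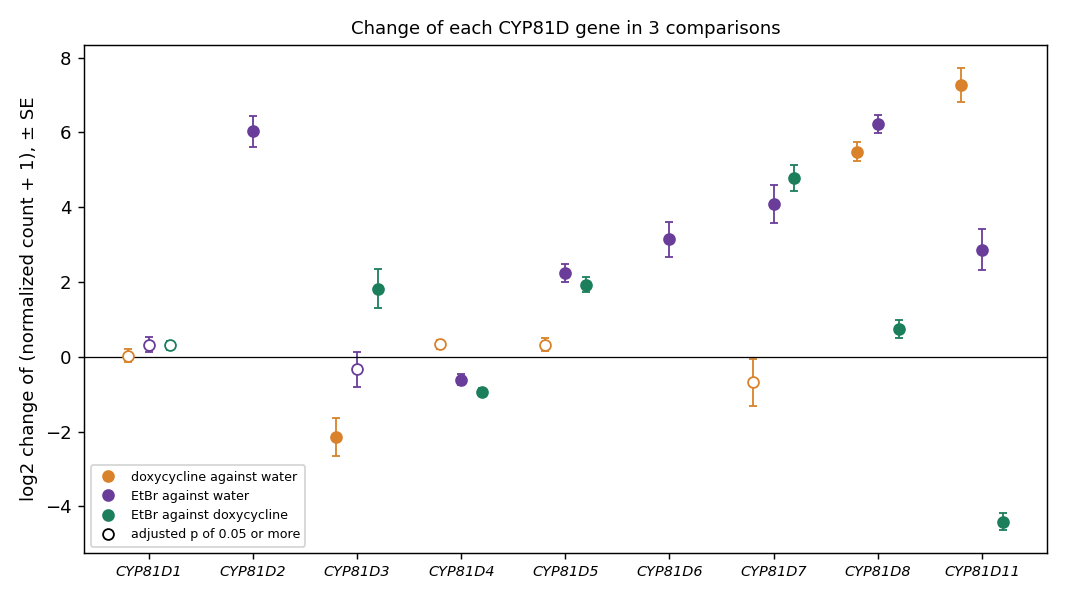
Log2 change of the normalized count plus 1 with its standard error for each CYP81D gene, for Dox against water, EtBr against water and EtBr against Dox. Filled points passed a limma adjusted p of 0.05, those of CYP81D2 and CYP81D6 are fitted against 0 reads in water, and CYP81D11 has the largest change with Dox (7.28) and the lowest between EtBr and Dox (-4.41).

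The treatments were also set against each other directly, on recovered reads scaled over all 9 libraries. Of the 7 members measured in both, 6 were called, against 57.3% of all 24319 genes: 4 were higher with EtBr, against 32.4%, and 2 were lower, against 24.8%. CYP81D11 was far lower with EtBr. Its mean was 1782 ± 453 with Dox and 82.4 ± 15.9 with EtBr (SD, n = 3), a log2 difference of -4.41 ± 0.22 (SE, limma adjusted p = 4.29e-05). It ranked 190 of 191 P450 genes, ordered from the highest to the lowest log2 difference. CYP81D7 was 4.78 ± 0.35 higher with EtBr on the log2 scale (limma adjusted p = 0.000106), a fitted value against 0 reads with Dox. Set against a floor of 3 reads over the Dox group, it stood 26.5-fold higher. CYP81D5 was higher by 1.93 ± 0.21 (limma adjusted p = 0.000411) and CYP81D4 lower, with a log2 difference of -0.94 ± 0.09 (limma adjusted p = 0.000272). Less firmly, CYP81D3 was higher with EtBr by 1.82 ± 0.53 (limma adjusted p = 0.0233). This call was lost in 4 of 6 fits that left out 1 library. CYP81D8 was higher by 0.75 ± 0.23 (limma adjusted p = 0.0308), and this call was lost in 5 of 6 such fits. Without EtBr replicate 3 the limma adjusted p was 0.0641 for CYP81D3 and 0.0807 for CYP81D8. CYP81D1 did not pass (0.30 ± 0.13, limma adjusted p = 0.0787).

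The makeup of the family differed between the groups. The summed level of the 7 members measured in both treatments, on the scale of all 9 libraries, was 2308 ± 327 in water, 8077 ± 1510 with Dox and 9172 ± 1634 with EtBr (SD, n = 3). CYP81D4 gave 49.1% to 55.5% of this sum in the water libraries, 16.3% to 22.9% with Dox and 8.08% to 9.35% with EtBr. CYP81D8 gave 2.15% to 5.46% in water, 39.5% to 48.8% with Dox and 65.8% to 68.5% with EtBr. CYP81D11 gave 19.7% to 23.8% with Dox and at most 1.26% in the libraries of water and EtBr. These shares are of normalized counts, not of counts per length. Per kilobase, CYP81D8 came first under both treatments, with 2018 ± 578 normalized counts with Dox and 3471 ± 610 with EtBr. Second was CYP81D11 with Dox (1084 ± 284) and CYP81D5 with EtBr (566 ± 176), where the libraries of CYP81D5 overlapped those of CYP81D4 (430.4 ± 39.2) and those of CYP81D4 overlapped those of CYP81D1 (359 ± 52.2).

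**Figure D3:**
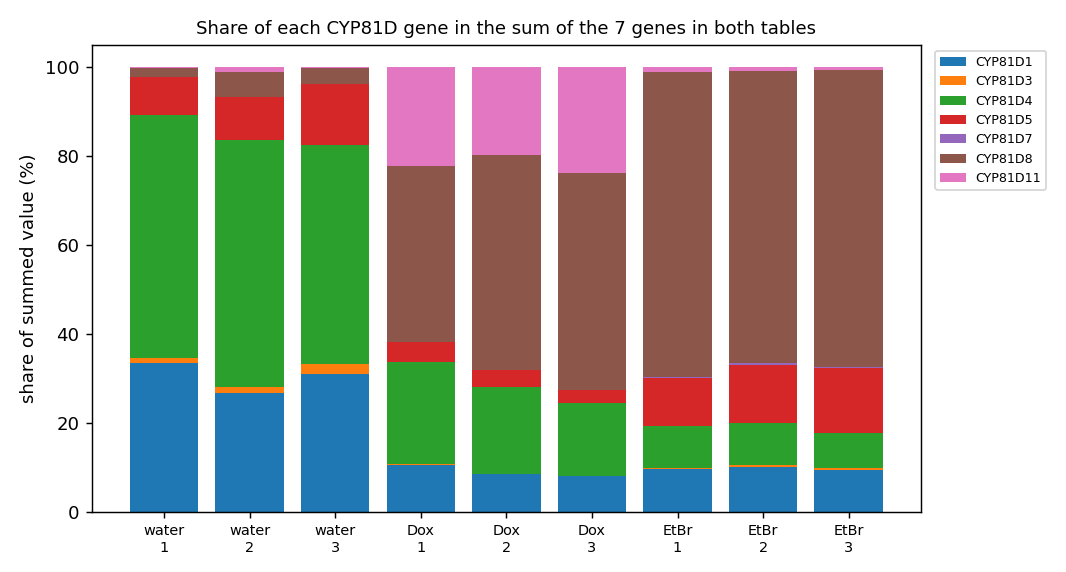
Share of each gene, in percent, in the summed normalized count of the 7 CYP81D genes measured in both treatments, for each library on the scale of all 9 libraries. CYP81D4 and CYP81D1 fill most of the water bars, CYP81D8 and CYP81D11 most of the Dox bars, and CYP81D8 gives 65.8% to 68.5% of the EtBr bars.

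Neighbours in the chromosome 4 run had unequal changes. With EtBr the log2 changes in the order of the run were 2.24 for CYP81D5, -0.61 for CYP81D4, -0.34 for CYP81D3, 6.03 for CYP81D2 (a fitted value against 0 reads) and 6.22 for CYP81D8. With Dox, 1 of the 4 members measured in the run was called higher, CYP81D8, and 1 lower, CYP81D3. Of all genes 6.47% were called higher and 5.27% lower. CYP81D4 and CYP81D5 did not pass. The genes beside the members were counted too, 3 on each side of a member or run. With Dox 3 of 21 measured were called higher and 0 lower (limma), with log2 changes of -1.73 to 2.74. This is 14.3% higher, against 6.47% of all genes. With EtBr 15 of 26 were called higher and 0 lower, with log2 changes of -0.31 to 5.19, which is 57.7% higher against 34.2% of all genes, and none lower against 21.2%. AT2G23160 (5.19), AT2G23230, UGT84B2 and AT5G36228, all called higher, were not listed for Dox, nor was AT5G36200, which did not pass. A neighbour with no read in water could only come out higher, and such genes were not counted apart among the 26. ELI1 lies 72 bases upstream of CYP81D8 on the same strand. It rose with EtBr (log2 change 3.67 ± 0.16, limma adjusted p = 3.83e-06), and with Dox its log2 change of 0.55 ± 0.19 did not pass (limma adjusted p = 0.0932). The strand setting of the counts is not given, and the end of CYP81D11 overlaps that of SSRP1, whose log2 change was 0.06 with Dox and 0.99 with EtBr.

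**Figure D4:**
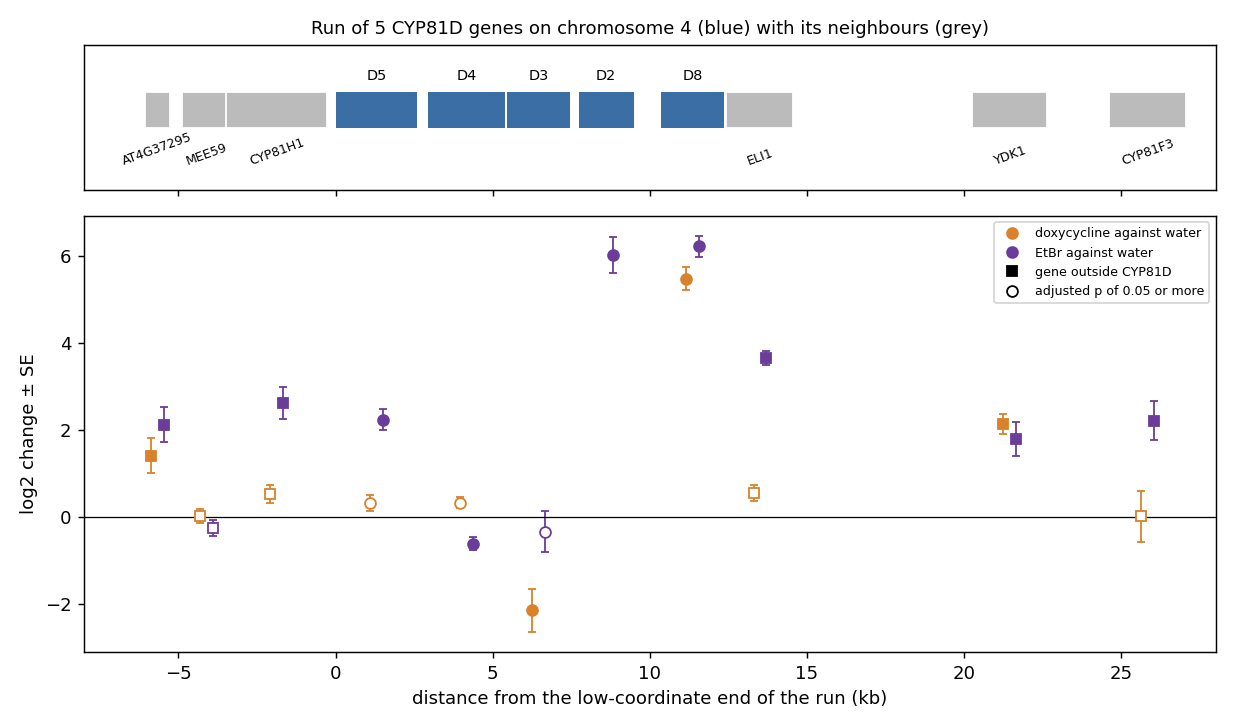
Order of the 5 CYP81D genes on chromosome 4 with 3 neighbours on each side (above), and the log2 change with its standard error of each gene at its middle, as a distance in kilobases from the low-coordinate end of the run, with the comparisons drawn slightly apart (below). CYP81D8 is high in both comparisons (5.48 and 6.22), while CYP81D4 and CYP81D3 lie between -2.15 and 0.33.

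The bases before CYP81D8 and CYP81D11, the members that rose with both treatments, are shown with the motif matches found before them. The motifs are those of factors known from other work to act on genes of this kind. Binding at these sites was not tested. In the 250 bases before each annotated start, both strands were searched for TGACG, the core that TGA factors bind, for its palindrome TGACGTCA, and for the mitochondrial dysfunction motif that NAC factors of mitochondrial signalling bind, spelled CTTG and then CAAG or CACG with any 5 bases between. Of 27443 windows of this length 18.6% held TGACG, 0.503% held TGACGTCA, a part of the TGACG matches, and 1.20% held the mitochondrial dysfunction motif. Among the 9 members, CYP81D11 held 1 TGACG and CYP81D8 held 1 mitochondrial dysfunction motif, and these letters were not in the windows of the other members. For CYP81D11 the window is chr3:10790554-10790803 on the minus strand (TAIR10.1), with the match at -231 to -227 from the start in capitals. For CYP81D8 the 72 bases between it and ELI1 are chr4:17571744-17571815 on the minus strand. Its match lies farther up, at -140 to -128 from the start, within the annotated end of ELI1, and is shown in capitals in 30 bases, chr4:17571862-17571891.
CYP81D11: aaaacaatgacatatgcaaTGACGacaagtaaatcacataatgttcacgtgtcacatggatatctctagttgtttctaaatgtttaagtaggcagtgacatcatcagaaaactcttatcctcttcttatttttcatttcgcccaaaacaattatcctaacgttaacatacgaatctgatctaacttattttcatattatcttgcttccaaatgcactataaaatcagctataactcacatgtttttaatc
CYP81D8: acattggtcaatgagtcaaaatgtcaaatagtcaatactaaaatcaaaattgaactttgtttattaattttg
CYP81D8 match: caaactttCTTGAGGAACAAGacttgactt

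The genes most like CYP81D8 and CYP81D11 in their levels were ranked. Over the 9 libraries, among 17189 genes with a mean of at least 50, CYP81D8 was most like AT4G37030 (Pearson r = 0.999), AOX1A, the alternative oxidase of the mitochondrial inner membrane (0.997), DREB2C (0.995), DTX3, a transporter of the MATE family (0.995), and MO1, a monooxygenase gene (0.994). CYP81D11 was most like CSLE1, a cellulose synthase-like gene (0.985), AT5G17000 (0.978), the plastid gene PSBM (0.971), the transcription factor NAC053 (0.971) and AT3G27880 (0.970). These correlations describe 9 libraries that fall into 3 treatment groups. AOX1A had means of 498 in water, 7784 with Dox and 14939 with EtBr, in the same order as CYP81D8, whereas NAC053 had 494, 2511 and 1134, with its highest mean with Dox, as for CYP81D11.

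Other CYP81 genes were listed for comparison, and 7 of 9 were measured. With Dox 2 of 7 were called higher, where 6.47% of all genes were, and 0 lower: CYP81F2, an enzyme of indole glucosinolate modification (log2 change 1.76 ± 0.25, limma adjusted p = 0.00136), and CYP81G1 (2.99 ± 0.63, limma adjusted p = 0.0124). Both calls were lost without water replicate 3 or any 1 Dox library, where 0 were called. CYP81H1 had 0.53 ± 0.22 (limma adjusted p = 0.150). With EtBr 4 of 7 were called higher and 1 lower, against 34.2% and 21.2% of all genes. CYP81G1 rose by 6.01 ± 0.65 (limma adjusted p = 0.000139) and CYP81H1, next to CYP81D5 on chromosome 4, by 2.62 ± 0.36 (limma adjusted p = 0.000468), while CYP81F4 fell by 2.56 on the log2 scale (limma adjusted p = 0.00145). Of P450 genes outside CYP81D as a whole, 23 of 184 were higher and 19 lower with Dox, or 12.5% and 10.3%, against 6.47% and 5.27% of all genes. With EtBr 80 of 220 were higher and 55 lower, or 36.4% and 25.0%, near the 34.2% and 21.2% of all genes. The total of 42 with Dox fell to 16 without water replicate 3, 27 without water replicate 2 and 13 to 17 without any 1 Dox library. Smallest in adjusted p with Dox were CYP710A1, a sterol desaturase of the P450 superfamily (log2 change 3.15 ± 0.17, limma adjusted p = 2.02e-06), and CYP89A3 and CYP76C5, which had no reads in water and means of 57.3 and 41.9 normalized counts with Dox. With EtBr they were CYP96A5, with no reads in water and a mean of 897, CYP706A6, which fell by 4.59 on the log2 scale (limma adjusted p = 4.59e-06), and CYP710A1, which rose by 4.23 (limma adjusted p = 4.59e-06).

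Redox partner genes, whose proteins pass electrons to P450 enzymes, were counted as well. With Dox 0 of 7 were called higher, where 6.47% of all genes were, and 2 lower, where 5.27% were (limma, 3 with an unadjusted p under 0.05, edgeR 2 lower): CYTB5-D, a cytochrome b5 (log2 change -0.88 ± 0.14, limma adjusted p = 0.00321), and CYTB5-B (-0.82 ± 0.18, limma adjusted p = 0.0146). This count was 1 without water replicate 1 and 0 without water replicate 3 or any 1 Dox library. ATR2, a cytochrome P450 reductase, had 0.40 ± 0.14 (limma adjusted p = 0.106). With EtBr 1 of 7 was higher, against 34.2% of all genes, and 3 were lower, against 21.2%. CB5-A rose by 1.29 ± 0.16 (limma adjusted p = 0.000273). ATR1, the other reductase, fell by 0.75 on the log2 scale (limma adjusted p = 0.00360), CYTB5-D by 2.04 (limma adjusted p = 5.16e-05) and CYTB5-B by 1.70 (limma adjusted p = 0.000207). The log2 change of ATR2 with EtBr was -0.23 (limma adjusted p = 0.204).

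Most genes listed for detoxification rose with both treatments. Of 26 genes, 22 glutathione transferases, glycosyltransferases and transporters and the 4 reductases OPR1, OPR2, AKR4C9 and AER, 22 were called higher with Dox and 0 lower, against 6.47% and 5.27% of all genes, with a median log2 change of 2.55 against -0.01. With EtBr 20 were higher and 0 lower, against 34.2% and 21.2%, with a median of 3.03 against 0.39, but edgeR called 1 lower. ABCB4, an ABC transporter, had a mean of 1166 ± 79.3 in water and 18109 ± 3099 with Dox (log2 change 3.94 ± 0.14, limma adjusted p = 2.04e-07), and its log2 change with EtBr was 3.79 ± 0.12 (limma adjusted p = 1.52e-06). GSTU24, a glutathione transferase, rose by 6.87 ± 0.31 with Dox (limma adjusted p = 8.44e-07) and by 3.92 ± 0.43 with EtBr (limma adjusted p = 0.000152). DTX3 rose by 6.34 ± 0.30 with Dox (limma adjusted p = 8.73e-07) and by 7.18 ± 0.31 with EtBr (limma adjusted p = 3.68e-06). DTX1 and UGT75D1, a glucosyltransferase, rose with EtBr by 4.47 ± 0.15 (limma adjusted p = 1.84e-06) and 3.47 ± 0.15 (limma adjusted p = 3.58e-06). Between the treatments 10 of the 26 were higher and 8 lower with EtBr. These are 38.5% and 30.8%, near the 32.4% and 24.8% of all genes.

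A list of 15 regulators held 7 TGA factors, 6 NAC factors, the GRAS protein SCL14 and GRXC9, a glutaredoxin that binds TGA factors. With Dox 5 were higher, or 33.3% against 6.47% of all genes, and 1 lower, or 6.67%, near the 5.27% of all genes. With 1 library left out, 4 to 6 of the 15 were called. The 1 that fell was GRXC9 (log2 change -1.49, limma adjusted p = 0.0269). ANAC13, a NAC factor of mitochondrial signalling, rose by 3.71 ± 0.15 (limma adjusted p = 4.38e-07), NAC053 by 2.32 ± 0.13 (limma adjusted p = 2.37e-06) and ANAC102 by 1.56 ± 0.11 (limma adjusted p = 1.00e-05). With EtBr 7 were higher, or 46.7% against 34.2% of all genes, and 5 lower, or 33.3% against 21.2%, GRXC9 again among the lower (-1.37, limma adjusted p = 0.00823). ANAC13 rose by 5.12 ± 0.16 (limma adjusted p = 1.52e-06), NAC032 by 2.91 ± 0.17 (limma adjusted p = 9.61e-06) and ANAC102 by 1.22 ± 0.11 (limma adjusted p = 7.21e-05). By kind, 4 of 6 NAC and 1 of 7 TGA factors were higher with Dox, against 6.47% of all genes, and 0 lower. With EtBr 6 of 6 NAC factors were higher, against 34.2% of all genes. Of the 7 TGA factors 0 were higher with EtBr and 4 lower, against 21.2% of all genes called lower. TGA2, among those lower, had log2 changes of -0.25 with Dox (limma adjusted p = 0.286) and -0.60 with EtBr (limma adjusted p = 0.0128). SCL14, a GRAS protein that works with TGA factors, had 0.33 with Dox (limma adjusted p = 0.158) and 0.89 with EtBr (limma adjusted p = 0.00131). Between the treatments NAC053 was lower with EtBr (-1.14 ± 0.14, limma adjusted p = 0.000706), and ANAC13 was higher (1.42 ± 0.14, limma adjusted p = 0.000267).

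Jasmonate genes, listed because CYP81D11 is known to respond to cis-jasmone, were called 0 times of 12 with Dox (limma, 2 with an unadjusted p under 0.05, edgeR 0). Of all genes 11.7% were called with Dox in either direction, so few of 12 would be called at that share. Smallest in adjusted p were OPR3, AOC2 and COI1, with log2 changes of -0.39, 0.73 and -0.22 (limma adjusted p = 0.106, 0.155 and 0.298). With EtBr 2 were higher and 6 lower, against 34.2% and 21.2% of all genes. OPR3, AOC1 and CYP74A, enzymes of jasmonate synthesis, fell by 2.2, 2.27 and 1.93 on the log2 scale (limma adjusted p = 3.87e-05, 4.68e-05 and 7.30e-05). The 2 called higher were VSP2 and JAZ10, which rose by 3.93 and 1.99 (limma adjusted p = 0.00173 and 0.00309). Of the tissue markers with EtBr, 3 of 16 root markers were higher and 5 lower, or 18.8% and 31.2%, against 34.2% and 21.2% of all genes. Of 10 shoot photosynthesis markers 2 were higher and 6 lower, or 20% and 60%, against the same shares of all genes. CASP1, SHR and SCR of the root list fell by 1.88, 1.69 and 0.71 on the log2 scale (limma adjusted p = 0.000251, 0.000438 and 0.00548). The 3 root markers called higher were EXPA7, PER73 and LRX1, which rose by 1.26, 1.35 and 2.02 (limma adjusted p = 0.0311, 0.0115 and 0.0169). These 3 were among those lower with Dox. In the shoot list LHCB2.1 rose by 1.90 (limma adjusted p = 2.66e-05), and PSAD1 fell by 1.68 (limma adjusted p = 3.64e-05). LHCB3 fell from a mean of 5799 normalized counts in water to 2057 with EtBr (limma adjusted p = 7.99e-05). Their summed levels were 1550 to 2086 for the root list, against 1512 to 2782 in water, and 320309 to 485678 for the shoot list, against 542559 to 617416, with no marker of either list at 0 throughout. The root count of 8 was 5 without water replicate 2 or EtBr replicate 1, and 3 without EtBr replicate 2 or 3. The part of tissue makeup in the changes of the CYP81D genes was not tested.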

How the data were processed

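Per the labels' protocols, RNA came from a TRIzol extraction and the library kit was NEBNext Ultra RNA. The submitters' processing notes list DESeq 1.18.0, HTSeq 0.6.1, TopHat2 2.0.12, Bowtie2 2.2.3 and CASAVA 1.8 without saying what each did. The genome build, the strand setting and any poly(A) selection are not given in the sources. The signal values that the authors deposited for each library are normalized read counts, reads divided by a size factor, in 1 table per treatment with the same 3 water libraries. Dividing by the smallest step gave whole reads, within 0.001 of a read, for 100% of values, and the test is weak for the 4 columns whose step lies near 1. The authors' own p-values, adjusted or not, and log2 fold changes are also deposited, and served only as an alternative. Replicates of a group differed by a chi-square per degree of freedom of at least 8.64, so none was counted as a copy.

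Tests of each treatment against water used limma 3.58.1 (R 4.3.3, variance trend, log2 of value plus 1, all genes, Benjamini-Hochberg at 0.05, 6 libraries, no block). A fold change on this scale understates the change of low genes. EtBr was tested against Dox on recovered reads over median-ratio size factors of 9 libraries, for 24319 genes in both tables. Read ratios carry exact binomial 95% intervals, which, like the floors, cover counting error only. The fit was tested on simulated data. Alternatives were edgeR 4.0.16, DESeq2 1.42.0, the pseudocount (0.1, 5), a filter (mean of at least 10), the threshold (0.01), no trend, centring, the block and each library left out. Named beyond the members were, against water, the 3 genes of smallest adjusted p of each list, which between treatments are mostly not printed, the 5 genes most like CYP81D8 and CYP81D11 and the neighbours. TGA2, SCL14, GRXC9, SSRP1, ELI1 and further single genes were named after their values were seen. The members and lists were chosen with earlier results of these data known. Positions and sequences are from RefSeq's TAIR10.1, where 99.99% of 28151 genes had the start and end of the deposited tables.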

Additional observations from a re-analysis of the deposited data

How the results depend on the processing

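CYP81D8 and CYP81D11 with Dox, and CYP81D5, CYP81D7, CYP81D8 and CYP81D11 with EtBr, stayed higher at an adjusted p under 0.05 under every alternative that gave a value and with each single library left out. edgeR's low-count filter and the filter on means gave no value for CYP81D6, and these and DESeq2 gave none for CYP81D7 with Dox. The members called were 2 to 3 with Dox, 6 to 7 with EtBr (CYP81D2 and CYP81D6 included) and 4 to 6 between the treatments over the other settings, and 2 to 3, 6 to 7 and 4 to 5 with 1 library left out. Of 356 alternatives of single members, 326 kept direction and call, 23 lost the call, 2 gained it and 5 changed sign. Not all of the 356 could change. CYP81D2 and CYP81D6 are among them, and the threshold of 0.01 cannot change a member that was not called. DESeq2 and the authors' values had nearly equal log2 changes and are not separate alternatives. The 326 is therefore not a measure of how firm the calls are. The sign changes were in values that did not pass: CYP81D1 with Dox (-0.00236 with centring, -0.00735 with edgeR, and -0.146 to 0.214 with 1 library left out) and CYP81D3 with EtBr (-0.563 to 0.0681 with 1 library left out). CYP81D3 with Dox also lost its call without the variance trend (limma adjusted p = 0.0537).

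The count of all genes called with Dox, 2868, depended on settings: it was 1281 at an adjusted p under 0.01, 1425 without the variance trend, and 777 to 1980 with 1 library left out, and the cause was not tested. Over those fits the counts for EtBr were 13307 to 15487 and between the treatments 11693 to 14269.

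The main fit did not pair libraries by replicate number. Same-numbered libraries had correlations of deviations of -0.01 to 0.03 for Dox, -0.14 to 0.12 for EtBr and 0.05 to 0.21 between treatments, not all above 0.1. Between treatments, libraries with different numbers had -0.18 to 0.13. With so few libraries this check cannot exclude a pairing. With the replicate number as a block, 2143 genes were called with Dox, 15726 with EtBr and 13879 between treatments, and 3, 7 and 6 members. Between treatments the block ended the call of CYP81D3 (limma adjusted p = 0.0513) and made one for CYP81D1 (limma adjusted p = 0.0436).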
